A study of Drosophila melanogaster with 3 samples.

Results

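The FGF genes of Drosophila melanogaster examined here are the ligand genes pyr, ths and bnl, the receptor genes htl and btl, and stumps, which encodes an adaptor that both receptors need. Occupancy of these 6 genes, of 13945 protein-coding genes annotated on the main chromosome arms, was read from a chromatin immunoprecipitation experiment on Tinman, an NK-2 class homeodomain protein of the mesoderm and heart. Entries were assigned to a gene when their summit lay in the gene body or within 10 kb of it. This took 96 of 30000 entries of a list pooled over replicates, and 12 of the 5508 entries kept by an irreproducible discovery rate (IDR) threshold, called IDR peaks. The windows took 85 entries from the list of replicate 1, 84 from replicate 2 and 64 from replicate 3.

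The single group of 3 biological replicates consisted of whole embryos of both sexes, aged 0 to 16 h, from a stable line with Tinman fused at its C terminus to GFP. Precipitation used anti-GFP per the sample descriptions (the antibody is labelled tin) on sonicated chromatin of 200 to 800 bp. The sources used here do not say whether the line kept its endogenous tin gene. There is no second genotype, age or antibody, and no list from a control precipitation was analysed here, so no test between conditions could be made. All scores are the peak caller's values as the authors deposited them, and a rank of 1 is the highest score in a list. The lists held 30000, 30000 and 24711 entries for replicates 1, 2 and 3. They hold no read counts, so the depth is unknown. In whole embryos a low score from few bound cells and one from weak binding in many cells cannot be told apart.

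FGF signalling in the fly runs through both receptors with different ligands. Pyramus (pyr) and Thisbe (ths) activate Heartless (htl), which drives the spreading and dorsal migration of the mesoderm, and the dorsal mesoderm in turn gives rise to the heart. Branchless (bnl) activates Breathless (btl), which guides the branching of the tracheal tubes. Stumps, also called Dof or Heartbroken, links the activated receptors to the Ras and MAP kinase cascade.

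IDR peaks were present at 5 of the 6 genes: 5 at stumps, 2 each at ths, htl and bnl, 1 at btl and 0 at pyr. Of all protein-coding genes, 68.1% had an IDR summit in the same window, and the mean window of the 6 genes, 46.8 kb, was longer than the median over all genes, 22.2 kb. Within 2 kb of the body, 4 of the 6 genes had an IDR summit, against 40.6% of all genes. The windows held 4.28 IDR peaks per 100 kb, close to the 4.49 per 100 kb found in the windows of all genes together. They were denser in entries of any score, with 34.2 pooled entries per 100 kb against 24.1, a count that includes background entries. Accordingly 12.5% of the pooled entries at the 6 genes were IDR peaks (12 of 96, Wilson 95% interval 7.30 to 20.6, counting error only). Over the whole pooled list the figure was 18.4%, which lies inside that interval, so the 2 shares cannot be told apart.

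Summit sequences of IDR peaks at htl, stumps and bnl are shown because they are the DNA on which the peaks were centred. They are given on the plus strand of dm6, 5′ to 3′, as 50 bp either side of the summit. For the bnl promoter peak only the bases outside the annotated UTR are given, and the whole peak is given for the upstream peak of stumps, the only one of the 12 with a Tinman site. Capitals mark matches, on either strand, to the searched motifs described further on, and sequences without capitals held none.
htl, higher-scoring peak (chr3R:18049631-18049731): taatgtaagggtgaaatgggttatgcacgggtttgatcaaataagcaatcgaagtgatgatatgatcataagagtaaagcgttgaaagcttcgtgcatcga
htl, lower-scoring peak (chr3R:18049834-18049934): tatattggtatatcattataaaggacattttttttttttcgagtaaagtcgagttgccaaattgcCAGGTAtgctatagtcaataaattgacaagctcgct
stumps, highest-scoring peak (chr3R:14591185-14591285): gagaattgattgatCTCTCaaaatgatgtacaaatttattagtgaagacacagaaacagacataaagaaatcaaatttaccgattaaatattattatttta
stumps, overlapping neighbour (chr3R:14591389-14591489): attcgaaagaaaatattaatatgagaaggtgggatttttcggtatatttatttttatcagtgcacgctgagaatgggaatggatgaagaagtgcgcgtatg
stumps, upstream peak in CG7987 (chr3R:14575236-14575416): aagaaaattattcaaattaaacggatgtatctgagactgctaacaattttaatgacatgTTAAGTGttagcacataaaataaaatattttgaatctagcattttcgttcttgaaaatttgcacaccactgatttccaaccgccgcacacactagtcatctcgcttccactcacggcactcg
bnl, promoter peak (chr3R:19836818-19836888): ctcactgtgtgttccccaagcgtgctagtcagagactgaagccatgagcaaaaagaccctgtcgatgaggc
bnl, intronic peak (chr3R:19831105-19831205): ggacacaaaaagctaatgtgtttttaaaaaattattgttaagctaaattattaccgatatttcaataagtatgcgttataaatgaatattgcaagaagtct

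In the pooled list these peaks were ordered with ths first and bnl last among the best of each gene. The highest-scoring entry within the ths window had rank 638 in replicate 1, 658 in replicate 2 and 486 in replicate 3, a mean of 594 ± 94.1 (SD, n = 3). At stumps the corresponding ranks were 1120, 842 and 740, a mean of 901 ± 197. All replicates thus placed stumps below ths, and their ranges did not overlap. The best entry at htl had ranks 1564, 3653 and 2437, a mean of 2551 ± 1049. It ranked below stumps in every replicate. At btl the ranks were 3772, 2798 and 3472, a mean of 3347 ± 499, a range that overlapped that of htl. At bnl they were 3844, 3781 and 5257, a mean of 4294 ± 835. These bnl values come from different places, the promoter peak in replicates 1 and 2 and the intronic peak in replicate 3, and the promoter peak alone had a mean rank of 6064 ± 3899. The best entries at pyr had ranks 5049, 8385 and 4705, a mean of 6046 ± 2033, overlapping the range of bnl, and that of replicate 2 lay at another place than those of replicates 1 and 3. The median pooled rank of the best IDR peak was 2107 over the 5 genes that had one and 1459 over the 9495 protein-coding genes that had one.

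**Figure D1:**
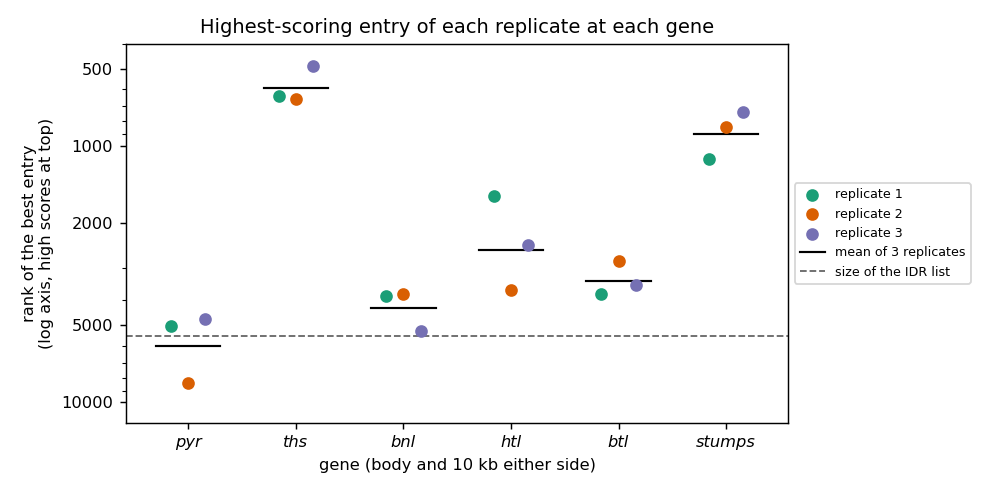
Rank of the highest-scoring entry of each replicate at each FGF gene (log axis, high scores at the top), with the mean of the 3 replicates as a bar. The points of ths and stumps lie above those of all other genes, and those of pyr lie on both sides of the dashed line at 5508, the size of the IDR list.

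Among the ligand genes, ths carried the highest score of all 6 genes. The gene spans 57608 bp (2R:11756817-11814424, plus strand) and its best peak, at 2R:11791691-11791971 with a pooled score of 655 and rank 537, lay in an intron 35039 bp downstream of the first annotated TSS and 1490 bp downstream of the second. The scores of this peak were 220, 183 and 230 in replicates 1, 2 and 3, and the replicate summits lay within 16 bp of the pooled one. A second ths peak, at 2R:11809362-11809791 (score 201, rank 3804), lay in an intron 4847 bp before the 3′ end of the gene. Its replicate ranks were 3456, 4168 and 4481, so it was found in each replicate at a similar place in the list. A further 23 pooled entries within the ths window did not reach the IDR list, with the best of them at rank 6810. The annotated start sites of ths held none of these peaks: the best entry within 500 bp of the first TSS had rank 21336, and none lay within 500 bp of the second.

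The neighbouring ligand gene pyr (2R:11712263-11726345, plus strand) had 13 pooled entries and no IDR peak. Its highest-scoring entry, at 2R:11717016-11717445 (score 131, pooled rank 6320), lay in an intron 4968 bp downstream of the TSS. The replicate entries nearest to its summit had ranks 13310, 21140 and 4705 and scores of 27.5, 18.8 and 53.9 in replicates 1, 2 and 3. Replicate 1 had a second overlapping entry, 168 bp from the summit, with a score of 62.3 and rank 5049. Replicates 1 and 3 thus each had an entry in this intron among their 5508 highest, and replicate 2 had none. No replicate placed any of the 12 IDR peaks below rank 10566. At the pyr TSS an entry 10 bp downstream had pooled rank 15236, with ranks 14373 and 8385 in replicates 1 and 2 and none in replicate 3.

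The third ligand gene, bnl, spans 42745 bp (3R:19794073-19836817, minus strand) and was the only one of the 6 whose first annotated TSS lay under an IDR peak. That peak, at 3R:19836623-19837052 (score 169, rank 4678), had its summit 21 bp upstream of the TSS. Replicates 1 and 2 ranked it 3844 and 3781, and replicate 3 ranked it 10566, with scores of 76.5, 63.9 and 28.3. It was thus absent from the 5508 highest entries of replicate 3, which held only 9 entries in the bnl window against 22 and 24 in replicates 1 and 2. The other bnl peak, at 3R:19830940-19831369 (score 157, rank 5122), lay in an intron 5662 bp downstream of the TSS. Replicates 1, 2 and 3 ranked it 5189, 6453 and 5257, close to the end of the IDR list in each. No IDR summit lay in the remaining 37082 bp of the gene.

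Both IDR peaks of the receptor gene htl (3R:18045216-18052984, minus strand) lay inside the gene, upstream of its second, internal TSS. The higher one, at 3R:18049636-18049746 (score 303, rank 2107), had its summit 315 bp upstream of that TSS and 3303 bp downstream of the first. The lower one, at 3R:18049669-18050098 (score 169, rank 4675), lay 518 bp upstream of the internal TSS and overlapped the higher one by 78 bp. Each replicate had a pair of entries there. For the higher peak the nearest entries had scores of 138, 65.4 and 89.6 in replicates 1, 2 and 3, with summits 2, 14 and 12 bp away. For the lower peak the scores were 87.3, 57.6 and 32.5 and the ranks 3205, 4349 and 8626, a mean of 5393 ± 2857, with summits 5, 47 and 15 bp away. The pair was therefore resolved in every replicate, with the entry nearer to the internal TSS the higher each time, and replicate 3 held the lower one outside its 5508 highest entries. No pooled entry had its summit within 500 bp of the first htl TSS. Overlap with another IDR peak was seen for 4 of the 12 peaks, a pair at htl and a pair at stumps, so that the 12 peaks cover 10 separate regions. Over the whole IDR list, 11.4% of peaks overlapped another.

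At the other receptor gene, btl (3L:14075772-14083229, plus strand), the only IDR peak (score 240, rank 2979) lay outside the gene, on its upstream side. The scores were 77.5, 79.5 and 69.2 in replicates 1, 2 and 3, and the replicate summits lay within 14 bp of the pooled one. Inside btl the best entry had pooled rank 20665, 69 bp downstream of the second TSS, with ranks 24038 and 16618 in replicates 1 and 3 and none in replicate 2.

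The adaptor gene stumps (3R:14577217-14608079, plus strand, 5 annotated TSSs) held the most IDR peaks, of which 3 were within the gene and grouped around its second TSS. The highest, at 3R:14591086-14591321 (score 507, rank 904), had its summit 385 bp upstream of that TSS, and the next, at 3R:14591310-14591481 (score 328, rank 1882), lay 181 bp upstream and overlapped it by 12 bp. Replicates 1 and 3 resolved these into separate entries, ranked 1120 and 740 for the first and 4197 and 1715 for the second. Replicate 2 had 1 entry, of rank 842, with its summit between them, 111 bp from the first and 93 bp from the second. A weaker peak at 3R:14589386-14589815 (score 156, rank 5153) lay 2019 bp upstream of the same TSS, with replicate ranks of 6219, 4413 and 5074.

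The remaining stumps peaks lay at neighbouring genes. One, at 3R:14575236-14575416 (score 329, rank 1877), was 1871 bp upstream of the first stumps TSS in an intron of CG7987, 541 bp from a TSS of that gene, and had replicate ranks of 1708, 3270 and 1485. The other, at 3R:14609384-14609543 (score 203, rank 3743), was 1404 bp past the 3′ end of stumps and 159 bp from a TSS of CG14853. The best entry at the first stumps TSS had pooled rank 17181, and no pooled entry lay within 500 bp of the 3 TSSs downstream of the second.

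**Figure D2:**
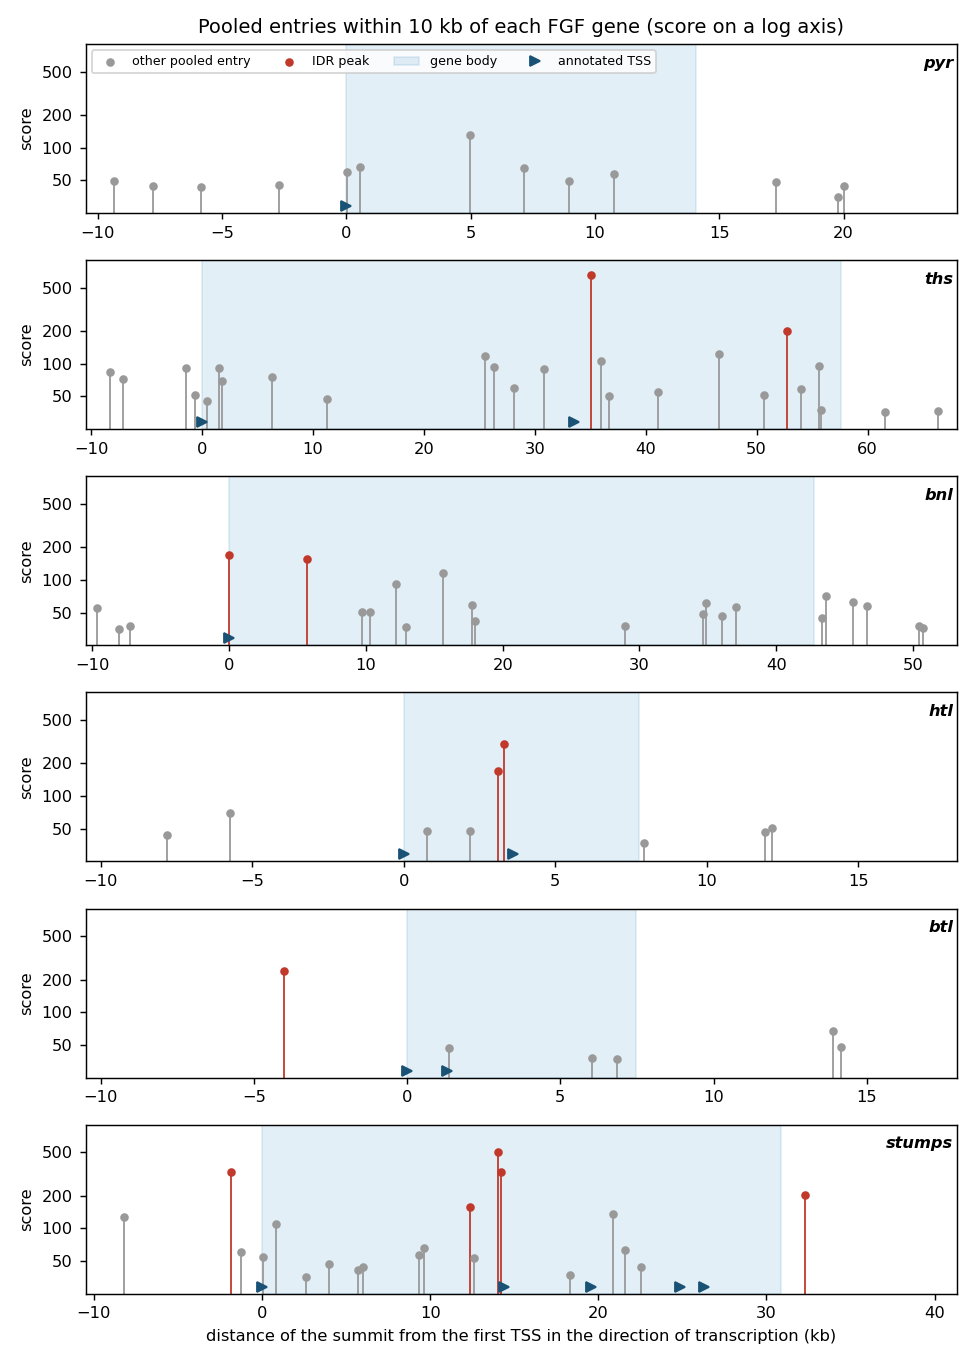
Pooled entries within 10 kb of each FGF gene, by distance of the summit from the first TSS in the direction of transcription (kb) and by score (log axis). IDR peaks are red, other entries grey, gene bodies shaded, and triangles mark annotated TSSs. The IDR peaks of htl and the highest of stumps stand just upstream of an internal TSS, that of ths 1490 bp downstream of one, that of btl outside the gene, and pyr has none.

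Across the 6 genes, 3 of 13 annotated TSSs had an IDR summit within 500 bp (bnl, and the second TSS of htl and of stumps), and 21.8% of the 19252 TSSs of protein-coding genes did. Counted by peak, 6 of the 12 summits lay within 500 bp of a TSS, 4 of them of the FGF gene itself, and the other 6 lay in introns. Over the IDR list 49.3% of summits were within 500 bp of a TSS. For 8 of the 12 peaks the nearest TSS belonged to the FGF gene, and 8 had the summit inside its body.

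The replicates had an overlapping entry of some rank at all 12 IDR peaks. A top entry, meaning one of the 5508 highest of that replicate, was present in all 3 replicates at 9 of the 12, against 72.5% of all IDR peaks. The exceptions were both bnl peaks and the weaker stumps peak, each missing from the top entries of 1 replicate. Counting only the entry with the nearest summit, the lower htl peak was a further exception, which left 8 of the 12, against 68.6% of all IDR peaks. Both counts use the same replicate 2 entry for each peak of the overlapping stumps pair. For the bnl promoter the replicate without a top entry was replicate 3, for the bnl intron replicate 2 and for stumps replicate 1. In the order of pooled rank, replicate ranks overlapped between 8 of 11 neighbouring pairs. The pairs without overlap were the first ths peak and the highest stumps peak, the highest stumps peak and that in CG7987, and the btl peak and the stumps peak at CG14853. The median score of the 12 peaks was 221, and that of all IDR peaks was 253. The lowest of the 12 scored 156, with the threshold of the list at 147, and the nearest entries outside it scored 136 (stumps), 131 (pyr) and 128 (at CG8066 near stumps). Of the 84 entries outside the IDR list, 0 had a top entry as the nearest one in all 3 replicates, 3 had it in 2 replicates, all in the stumps window, and 3 in 1 replicate, at pyr and ths. Of the 3 at stumps, those scoring 136 and 128 missed the top entries in replicate 2 only, with ranks of 13625 and 11856 there, and the other shares its replicate entries with the weaker stumps peak.

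**Figure D3:**
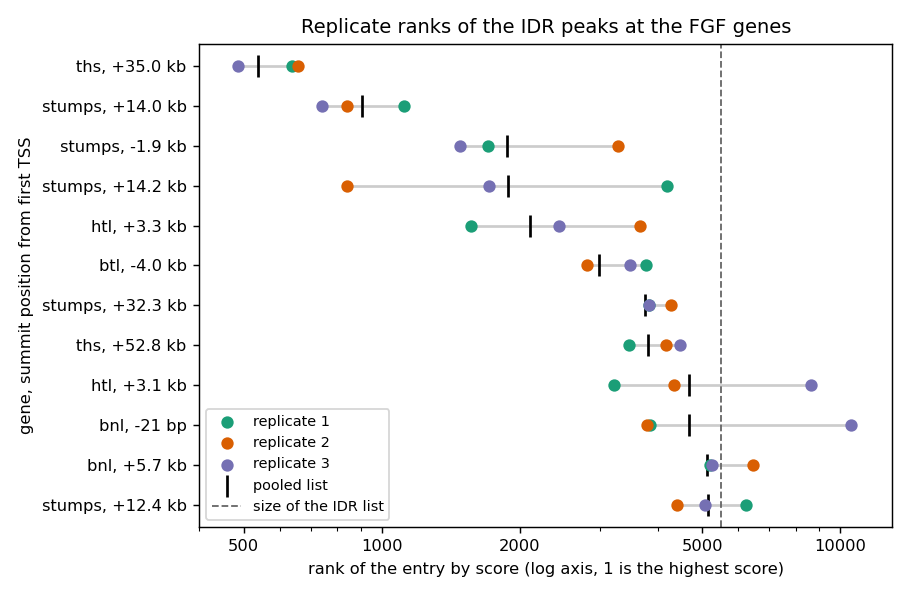
Ranks of the 12 IDR peaks in each replicate (points, joined by a line from lowest to highest) and in the pooled list (black bars), on a log axis. Peaks are labelled by gene and distance from the first TSS. The 3 points of the first ths peak lie between 486 and 658, and the bnl promoter spreads from 3781 to 10566.

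Tinman sites, TCAAGTG or TTAAGTG on either strand, were rare under these peaks. None of the 12 had one that lay whole within 50 bp either side of the summit, against 4.23% of all IDR peaks. With 12 peaks and a share this low, a count of 0 shows no difference. Extended to the whole peak, 1 of 12 had a site, against 13.8% of all IDR peaks. This was TTAAGTG in the upstream peak of stumps, at 3R:14575295-14575301, centred 48 bp from the summit, so that it reaches past the edge of that window, and printed in capitals above. The median distance from summit to the nearest site was 688 bp for the 12 peaks, with a range of 48 to 2993 bp, and 940 bp over all IDR peaks. Both htl summits were the farthest, at 2993 and 2790 bp. The 6 windows contained 152 sites in all, of which 20 (13.2%) fell in a pooled entry and 1 (0.658%) in an IDR peak. The pooled entries covered 13.3% of the windows and the IDR peaks 1.19%.

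Matches to the other motifs were counted in the same way. Within 50 bp of the summit, the Zelda motif CAGGTA was present at 1 of 12 peaks, the lower htl peak, and at 2.11% of IDR peaks. Zelda is a pioneer factor of the early embryo. The motif TACGTG of the tracheal regulator Trachealess with its partner Tango was present at 1 of 12, the peak upstream of btl, and at 1.98% of IDR peaks. GAGAG, bound by GAGA factor, was at 2 of 12, both in the stumps window, and at 9.71% of IDR peaks. The Twist E-boxes CATATG and CATGTG, the DRE TATCGATA, the Ets motif CCGGAA and the Mef2 motif were at 0 of 12 within 50 bp, and at 3.36%, 3.27%, 2.58%, 1.98% and 6.45% of IDR peaks. In whole peaks, GAGAG was present in 5 of 12, of which 3 were stumps peaks and the others the lower htl peak and the bnl promoter peak, against 36.9% of IDR peaks. CATGTG was present in the lower htl peak (1 of 12, against 13.2%), CCGGAA in the bnl promoter peak (1 of 12, against 7.43%) and the Mef2 motif in the second ths peak (1 of 12, against 18.1%). CAGGTA and TACGTG stayed at 1 of 12 each in whole peaks, against 6.88% and 7.82% of IDR peaks. With 12 peaks, a count of 1 shows no difference from any of these shares, within 50 bp or in whole peaks. No match of one motif overlapped a match of another in these peaks, while GAGAG matches overlap each other in runs of GA. GC content within 50 bp of the summit was 35.6% ± 8.56 (SD over the 12 peaks), from 23.8% at the highest stumps peak to 57.4% at the bnl promoter, and 35.4% ± 9.12 over all IDR peaks.

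Other genes of the pathway carried IDR peaks too, several of them with higher scores than the ligands and receptors. Of 18 genes of signal transduction downstream of the receptors, 16 had an IDR summit within 10 kb, and Sos and rl had none. The highest were those of Shc, an adaptor of receptor tyrosine kinases (rank 16, 122 bp from its TSS), Raf, the MAP kinase kinase kinase (rank 76, intronic), RasGAP1, an inhibitor of Ras also known as Gap1 (rank 93), and cnk, a scaffold of the cascade (rank 151, at a TSS of l(2)k01209). Of 10 genes of heparan sulfate proteoglycans, which act as FGF co-receptors, and of the enzymes of their synthesis, 10 had one. They were led by sfl, a sulfotransferase (rank 68, at a TSS of Bulli), Hs2st, a sulfotransferase (rank 257), botv, a glycosyltransferase of the exostosin family (rank 398, at a TSS of CG15111), and dlp, a glypican (rank 484, in an intron). Of 10 transcription factor genes that act in mesoderm or trachea, 8 had one, led by Mef2, a factor of muscle differentiation (rank 44, outside the gene at a TSS of Pdrg1), sima, the fly hypoxia-inducible factor (rank 375), tin itself (rank 397) and dl, the dorsoventral patterning factor Dorsal (rank 782, outside the gene in an intron, with the nearest TSS that of Dif), and sna and vvl had none. The background of 68.1% applies to each count, and the median windows of these lists, 31.9, 66.7 and 39.8 kb, were also longer than the 22.2 kb over all genes.

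The genes with replicate ranks nearest to those of each FGF gene were found by the distance of log10 ranks over the 3 replicates. It was taken between the highest IDR peak of each of 9494 other genes and that of the FGF gene. Other FGF genes, and genes sharing the FGF gene's peak, were left out when the nearest were named. For htl the nearest were CG8407 and Hen1, which share a peak of ranks 1638, 3812 and 2508 (distance 0.0300). For btl they were Men and PolQ (0.0279), for ths ATPsynbetaL and CG13074 (0.0464) and for bnl CG33635 and CG3436 (0.0385), each pair sharing 1 peak. For stumps they were CG42266 (0.0516) and Pp2C1 (0.0648).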

How the data were processed

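Chromatin immunoprecipitation with anti-GFP was done on 3 replicates of embryos with GFP-tagged Tinman, which form 1 group. Replicate numbers come from the labels. Per the notes deposited with the samples, the authors called entries per replicate and on pooled data from alignments with a control, and took the IDR list from these. No source used here names the aligner, the peak caller or the IDR cutoff. The lists on the dm3 build were not used here. The authors deposited a score in the signal column, whose normalization is not given. The deposited −log10 q values, constant at 4.05 in the IDR list, were used in an alternative only, and the p-value column holds −1 throughout, so the alternative planned on it was not run.

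Coordinates are dm6 (Release 6, 1-based). Sequence came from RefSeq and genes, protein-coding only, from Ensembl release 115. A summit is the list's start plus its offset column. Overlap of at least 1 bp counted. The overlapping replicate entry with the nearest summit gave the replicate rank. A promoter summit lies within 500 bp of a TSS. Motifs were searched in 101-bp windows. Named genes follow a rule: all peaks of the 6 genes, their nearest genes, the 4 highest genes of each pathway list and the 2 genes nearest in replicate ranks. The gene nearest to 1 peak is not reported here. The 6 genes, the 3 pathway lists and the motifs were chosen with earlier results of these data known. The code was tested on simulated data (Python 3.11.15, pandas 2.3.3, numpy 2.4.6, scipy 1.17.1).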

Additional observations from a re-analysis of the deposited data

How the results depend on the processing

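The window, the replicates and the overlap rule were varied. With windows of 2 or 5 kb, the 12 peaks, 5 genes and 12.5% stayed within set limits. These were 1.5 times for counts and the Wilson interval for the percentage. At 2 kb the only btl peak was lost. Leaving out a replicate could not move these values past the limits, because the 9 peaks among the top entries of all 3 replicates stay each time. Peaks had to be among the top entries of the replicates kept. Leaving out replicate 1 dropped both bnl peaks, and replicate 2 the bnl promoter and the weaker stumps peak. Without replicate 3 the bnl intron and the weaker stumps peak were dropped. Each time 10 of the 12 stayed, while 78.8%, 79.7% and 78.7% of all IDR peaks did without replicates 1, 2 and 3. Among the 2754 highest-scoring IDR peaks there were 5 peaks at 3 genes (ths, stumps and htl), 5.21% of the pooled entries, and 5 were in all 3 replicates, because fewer peaks enter. Requiring an overlap of at least 50% of both entries left 2 of the 9 peaks found in all replicates, and the cause was not tested. No share over all IDR peaks under this rule is given here, so the fall cannot be called particular to these peaks. Within 100 bp of the summit, and in the whole peak, 1 peak had a Tinman site in place of 0. The mean over replicates of the median rank of the 12 peaks was 3659 ± 52.7 (SD, n = 3). It was 3407 with the highest-ranked overlapping entry in place of the nearest, which moves the lower htl peak onto the entry of the higher, and 1315 with entries ranked by −log10 q, a value that many entries share. Both alternatives were chosen after seeing the data. No paired analysis was possible because there is 1 group. Depth is unknown, so no limit on undetected peaks can be given.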
